A study of Mus musculus with 1617 samples.

Results

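Microglia of the adult mouse visual cortex were set against those of the visual cortex at postnatal day 14 (P14), cell by cell. The labels put 95 cells in the adult group and 120 single-read cells, whose descriptions do not name paired-end reads, in the P14 group. Cells with Calb1 at 100000 TPM or more (8 adult and 8 P14 cells) were left out, and so were cells with fewer than 1000 genes at 1 TPM or more. This left 87 of 95 adult cells, and all but 8 of the 120 P14 cells, together 12.3% of the 1617 cells of the series, and all genes were described. Cells of both ages were brain macrophages sorted as CD45+, F4/80+, CD11b+ and Ly6C-, captured singly on Fluidigm C1 chips and made into Nextera XT libraries. The sources used here give no strain, sex, genotype, exact adult age or number of animals. Each age is therefore 1 sample, and cells were not used as replicates for a p-value or a standard error. Values are TPM, which scales each gene by transcript length and sets every cell to the same total.

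Microglia are the resident macrophages of the brain parenchyma. They arise from yolk sac progenitors, depend on the receptor Csf1r, and keep a tissue-specific programme that the transcription factor Sall1 and TGF-beta help to maintain. In the first postnatal weeks microglia still divide, clear dying cells and prune synapses, while in adult tissue they divide rarely.

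The cells carried defining markers of microglia at both ages. Csf1r and P2ry12 were found at 1 TPM or more in all 87 adult cells and in every kept P14 cell, and Tmem119 in 85 adult and 110 P14 cells. Unbroken stretches of cell numbers in the titles formed 3 title runs per age, with 21, 52 and 14 kept adult cells and 48, 30 and 34 kept P14 cells. What the runs stand for is not known, and they served only as a technical split. The median number of genes at 1 TPM or more was 3527 per adult cell (lowest 1050, highest 5078) and 4042.5 per P14 cell (lowest 1045, highest 5543). Run medians of genes per cell did not overlap, at 3689, 3470 and 3678.5 in the adult and 3890, 4078 and 4265 at P14, and the part of this gap in the differences below was not tested. Reads per cell are unknown, because TPM keeps no record of depth.

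Differences are given as log2 of the ratio of mean TPM, adult over P14, with 1 TPM added to each mean, so that differences of genes at low levels come out too small. Of 11856 genes with a mean of 5 TPM or more at either age, 2631 (22.2%) were at least 2-fold higher and 3234 (27.3%) at least 2-fold lower in adult cells. When every adult run mean also had to lie beyond every P14 run mean, written below as apart in every run, 389 genes (3.28%) were higher and 954 (8.05%) lower. These shares are the background for the member counts of every gene list below. The median over all measured genes was -0.07. On the difference of mean log2(TPM + 1), which weighs the share of cells with a transcript more than the highest cells, 1.11% of measured genes were higher and 5.33% lower by 2-fold or more.

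P14 cells deposited as paired-end reads, which are other cells with fewer genes each, differed from single-read P14 cells at counts of similar size. Paired-end P14 cells (all but 6 of 150 kept, median 2700 genes) were at least 2-fold higher than single-read P14 cells for 18.4% of 11736 measured genes and at least 2-fold lower for 29.4%. Against those paired-end P14 cells, 266 of the 389 genes remained at least 2-fold higher in adult cells and 682 of the 954 at least 2-fold lower. Of all 11641 genes measured in that comparison, 31.8% were higher and 25.7% lower. The adult cells were the same in both comparisons and had part in the choice of these genes. The counts are therefore no independent check.

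**Figure D1:**
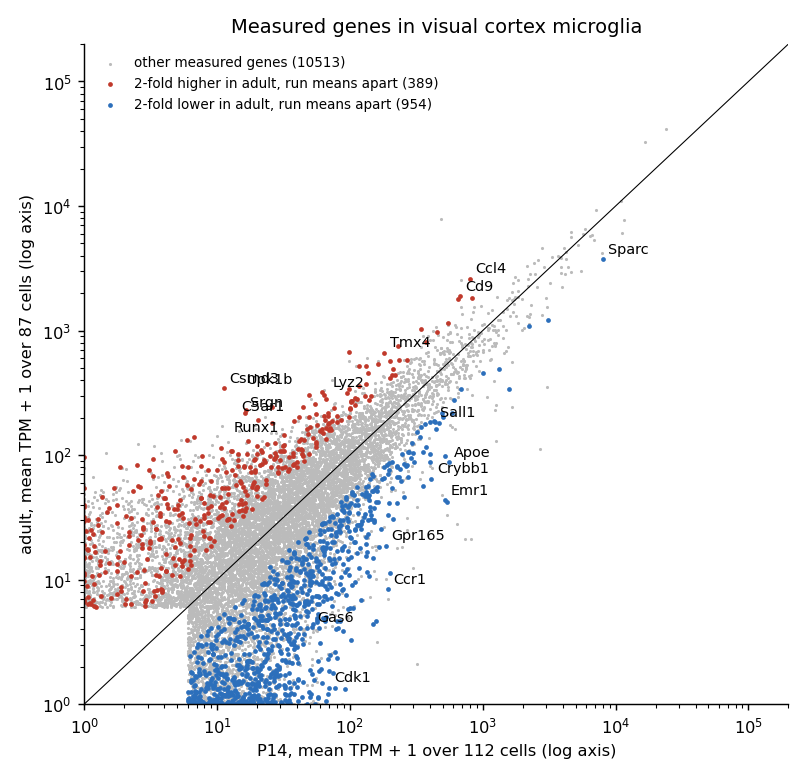
Mean TPM + 1 of each measured gene in adult cells (vertical, log axis) against P14 cells (horizontal, log axis). Coloured points are the 389 genes at least 2-fold higher and the 954 genes at least 2-fold lower in adult cells with run means apart in every run; Csmd3 lies far above and Emr1 far below the line of equality.

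The largest ratio among the genes ranked as higher in adult cells was that of Csmd3, a large membrane protein gene with CUB and sushi domains (GRCm38, chromosome 15, 47580637 to 48792063). It averaged 345 TPM in adult cells and 10.3 TPM in P14 cells, a log2 ratio of 4.94. Adult cells ranged from 0 to 4431 TPM with a median of 13.2 TPM, and P14 cells ranged from 0 to 355 TPM with a median of 0.490 TPM. Its run means were 258, 423 and 181.3 TPM in the adult runs, against 12.46, 2.38 and 14.1 TPM in the P14 runs. Run means without overlap, and 1 TPM or more in at least 25% of adult cells, were conditions of this ranking. At 100 TPM or more it was found in 28 adult cells (32.2%) and 3 P14 cells (2.68%); the exact 95% intervals, which cover counting error over cells only, were 22.6 to 43.1% in the adult and 0.556 to 7.63% at P14.

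The other 11 genes at the head of this ranking were Slamf9, Phactr1, Srgn, Klk8, Iqcc, Apex2, Tmem11, Aste1, Zfp808, Cd34 and Naa25, with log2 ratios between 4.37 and 2.82. Srgn, which encodes the granule proteoglycan serglycin, averaged 218.3 TPM in adult cells and 15.2 TPM in P14 cells. Its run means were 331, 202.6 and 107.5 TPM in the adult runs, against 18.2, 7.09 and 18.2 TPM in the P14 runs, and it was seen at 1 TPM or more in 36 adult cells (41.4%) and 14 P14 cells. Slamf9, a receptor of the SLAM family, averaged 137.5 TPM in adult cells and 5.71 TPM in P14 cells, and was seen in 29 adult cells (33.3%) and 10 P14 cells (8.93%). Klk8, the secreted serine protease neuropsin, averaged 78.5 TPM in adult cells and 5.09 TPM in P14 cells and was seen in 23 adult cells (26.4%) and 5 P14 cells (4.46%). Cd34, a sialomucin best known from progenitor and endothelial cells, averaged 129.5 TPM in adult cells and 16.2 TPM in P14 cells. It was seen in most cells of both ages, 71 adult cells (81.6%) and 83 P14 cells (74.1%), and the ages stood further apart in cells at 100 TPM or more, which were 14 adult cells (16.1%) and 1 P14 cell (0.893%).

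Several genes of this ranking rested on few cells. A single cell carried 62.7% of the summed adult TPM of Apex2, a DNA repair nuclease, 52.5% of that of the zinc finger gene Zfp808, 45.6% of that of Iqcc and 44.4% of that of Phactr1, a regulator of actin and protein phosphatase 1. The difference of mean log2(TPM + 1) was 0.36 for Apex2, 0.53 for Phactr1 and 0.18 for Naa25, an accessory subunit of the N-terminal acetyltransferase NatB. With the cells left out by the rule put back, the Apex2 ratio was -2.65. Tmem11, of the inner mitochondrial membrane, averaged 189.8 TPM in adult cells and 19.3 TPM in P14 cells, and was seen in 23 adult cells (26.4%) and 17 P14 cells (15.2%). Aste1 averaged 106.7 TPM in adult cells and 11.97 TPM in P14 cells, and Iqcc averaged 55.6 TPM in adult cells and 3.34 TPM in P14 cells, with 3 adult cells at 100 TPM or more.

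Of the genes lower in adult cells, the 12 with the largest ratios were Kctd20, Erp44, Mfsd10, H2-Oa, Ccr1, Gtf2h3, Tpra1, Eif2s3x, Trrap, Ctsf, G6pdx and Abcf3, with log2 ratios between -5.23 and -4.09. Ccr1, a chemokine receptor, averaged 7.35 TPM in adult cells and 192.7 TPM in P14 cells. Its run means were 1.21, 11.7 and 0.266 TPM in the adult runs, against 306, 137.01 and 82.4 TPM in the P14 runs, and 1 adult cell at 607 TPM held 94.96% of the adult sum. It was seen in 6 adult cells (6.90%) and 33 P14 cells (29.5%), with exact 95% intervals of 2.57 to 14.4% in the adult and 21.2 to 38.8% at P14. This ranking required run means apart and 1 TPM or more in at least 25% of P14 cells, so such shares are no separate support. Erp44, a thiol chaperone of the secretory pathway, averaged 3.40 TPM in adult cells and 149.3 TPM in P14 cells, and 1 adult cell (1.15%) and 21 P14 cells (18.8%) reached 100 TPM.

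Ctsf, the lysosomal protease cathepsin F, averaged 5.86 TPM in adult cells and 120.5 TPM in P14 cells, with 1 adult cell (1.15%) and 21 P14 cells (18.8%) at 100 TPM or more. H2-Oa, a chain of the H2-O modulator of peptide loading on MHC class II, averaged 2.30 TPM in adult cells and 101.5 TPM in P14 cells. G6pdx, the first enzyme of the pentose phosphate pathway, averaged 3.68 TPM in adult cells and 79.02 TPM in P14 cells. Trrap, a scaffold of histone acetyltransferase complexes, averaged 10.3 TPM in adult cells and 200.5 TPM in P14 cells, and its run means of 9.39, 10.3 and 11.9 TPM in the adult runs, against 410.2, 16.2 and 66.99 TPM in the P14 runs show that the P14 runs themselves differed widely. Gtf2h3, a subunit of the transcription factor TFIIH, averaged 3.09 TPM in adult cells and 80.7 TPM in P14 cells. Kctd20 averaged 0.853 TPM in adult cells and 68.7 TPM in P14 cells, and Mfsd10 averaged 1.35 TPM in adult cells and 79.3 TPM in P14 cells. Tpra1 averaged 3.62 TPM in adult cells and 83.3 TPM in P14 cells, and Abcf3 averaged 4.91 TPM in adult cells and 99.5 TPM in P14 cells.

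Eif2s3x, the X-linked gamma subunit of the initiation factor eIF2, averaged 4.89 TPM in adult cells and 105.2 TPM in P14 cells. It has a closely similar copy on the Y chromosome, so its values are uncertain. Xist, the transcript of X inactivation, averaged 95.7 TPM in adult cells and 188.7 TPM in P14 cells and was seen in 54 adult cells (62.1%) and 95 P14 cells (84.8%). Both Xist and a Y-linked transcript were found in 49 adult and 82 P14 cells, so the sex of a cell was not read from these genes, and the part of sex in the Eif2s3x difference was not tested.

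**Figure D2:**
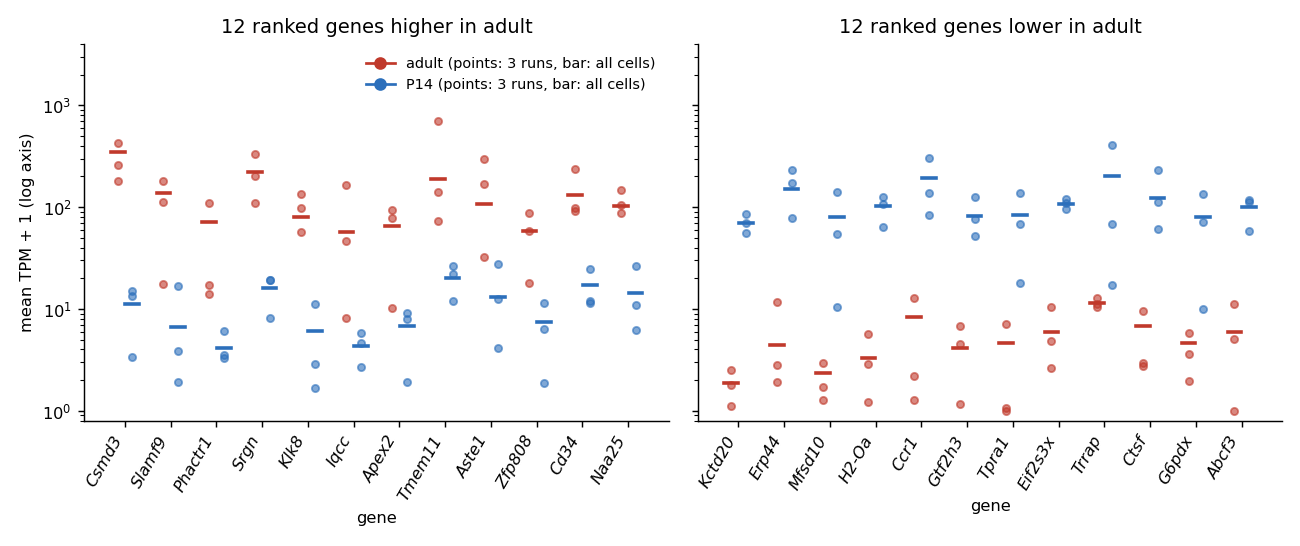
Mean TPM + 1 (log axis) of the 12 ranked genes higher and the 12 ranked genes lower in adult cells; points are the 3 title runs of each age and bars the mean over all cells, with adult left of P14. Adult and P14 points do not overlap for these genes, which the ranking required, and the runs of 1 age spread widely for genes such as Slamf9 and Trrap.

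A ranking by the difference of mean log2(TPM + 1), added after values were seen, brought up genes that differed over many cells. It took only genes that passed the filters of the first ranking, with 2-fold ratios and run means apart in every run. These filters also required 1 TPM or more in at least 25% of cells of the higher age. The 12 lower in adult cells were Crybb1, Emr1, Man2b1, Gpr165, Apoe, Ddx26b, Ckb, Cfl1, Pfn1, Itga6, Atp6ap1 and Gpr56. Emr1 is the table's name for Adgre1 (chromosome 17, 57358691 to 57483527), which encodes F4/80, a surface protein by which the cells were sorted. It averaged 42.6 TPM in adult cells and 516 TPM in P14 cells, a log2 ratio of -3.57. Adult cells ranged from 0 to 523 TPM with a median of 1.30 TPM, and P14 cells ranged from 0 to 4351 TPM with a median of 41.9 TPM. Run means were 27.5, 40.2 and 74.03 TPM in the adult runs, against 749, 345 and 338 TPM in the P14 runs. That they did not overlap was required by the filters. It was seen in 47 adult cells (54.02%) and 98 P14 cells (87.5%), with exact 95% intervals of 42.998 to 64.8% in the adult and 79.9 to 92.99% at P14. By the ratio of means, the genes of the other sort markers lay within 2-fold. Ptprc, for CD45, averaged 597 TPM in adult cells and 335 TPM in P14 cells. Itgam, for CD11b, averaged 359.6 TPM in adult cells and 492 TPM in P14 cells. On the difference of mean log2(TPM + 1), Itgam was lower by more than 2-fold at -1.14, and Ptprc stood at 0.55.

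Crybb1, a crystallin gene known as a marker of immature microglia, averaged 63.6 TPM in adult cells and 409 TPM in P14 cells, and reached 100 TPM in 10 adult cells (11.5%) and 53 P14 cells (47.3%). Gpr165, an orphan receptor, was seen in 12 adult cells (13.8%) and 70 P14 cells (62.5%), with exact 95% intervals of 7.34 to 22.9% in the adult and 52.9 to 71.5% at P14. Its run means were 24.6, 17.6 and 7.51 TPM in the adult runs, against 230.4, 151.9 and 148.1 TPM in the P14 runs. Man2b1, lysosomal alpha-mannosidase, averaged 105.8 TPM in adult cells and 352 TPM in P14 cells, and its median was 0.840 TPM in adult cells and 103.6 TPM in P14 cells. The middle adult cell thus held almost none of the Man2b1 transcript and the middle P14 cell a clear level.

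The actin-binding gene Cfl1, for cofilin, averaged 115.5 TPM in adult cells and 371 TPM in P14 cells, and Pfn1, for profilin, averaged 103.6 TPM in adult cells and 298 TPM in P14 cells. Ckb, brain-type creatine kinase, averaged 184.8 TPM in adult cells and 399 TPM in P14 cells. Itga6, integrin alpha 6, averaged 187.2 TPM in adult cells and 427 TPM in P14 cells. Gpr56, an adhesion receptor, averaged 168.5 TPM in adult cells and 342 TPM in P14 cells, and Atp6ap1, an accessory subunit of the vacuolar proton pump, averaged 217.9 TPM in adult cells and 493 TPM in P14 cells. Ddx26b averaged 338 TPM in adult cells and 1567 TPM in P14 cells, and 1 P14 cell held 65.04% of the P14 sum.

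The 12 genes higher in adult cells on the same scale, under the same filters, were Csmd3, Ccl4, Dusp1, Upk1b, Nfkbiz, Lyz2, Cd9, Fam102b, Tmx4, Srgn, Tmcc3 and C5ar1. Upk1b, a tetraspanin best known from urothelium, averaged 303 TPM in adult cells and 47.8 TPM in P14 cells, and 1 P14 cell held 67.9% of the P14 sum. It was seen in 34 adult cells (39.1%) and 8 P14 cells (7.14%), with exact 95% intervals of 28.8 to 50.1% in the adult and 3.13 to 13.6% at P14. Cd9, a tetraspanin seen in 86 adult cells (98.9%) and 92.9% of P14 cells, averaged 1894 TPM in adult cells and 677 TPM in P14 cells. Its median was 1523 TPM in adult cells and 182.2 TPM in P14 cells, and its run means were 1533, 2146 and 1502 TPM in the adult runs, against 971, 628 and 304 TPM in the P14 runs. Tmx4, a thioredoxin-related membrane protein of the endoplasmic reticulum, averaged 661 TPM in adult cells and 180.003 TPM in P14 cells, with run means of 733, 694 and 435 TPM in the adult runs, against 192.3, 127.4 and 209.05 TPM in the P14 runs. Fam102b averaged 272 TPM in adult cells and 101.1 TPM in P14 cells, and Tmcc3 averaged 279 TPM in adult cells and 112.7 TPM in P14 cells.

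**Figure D3:**
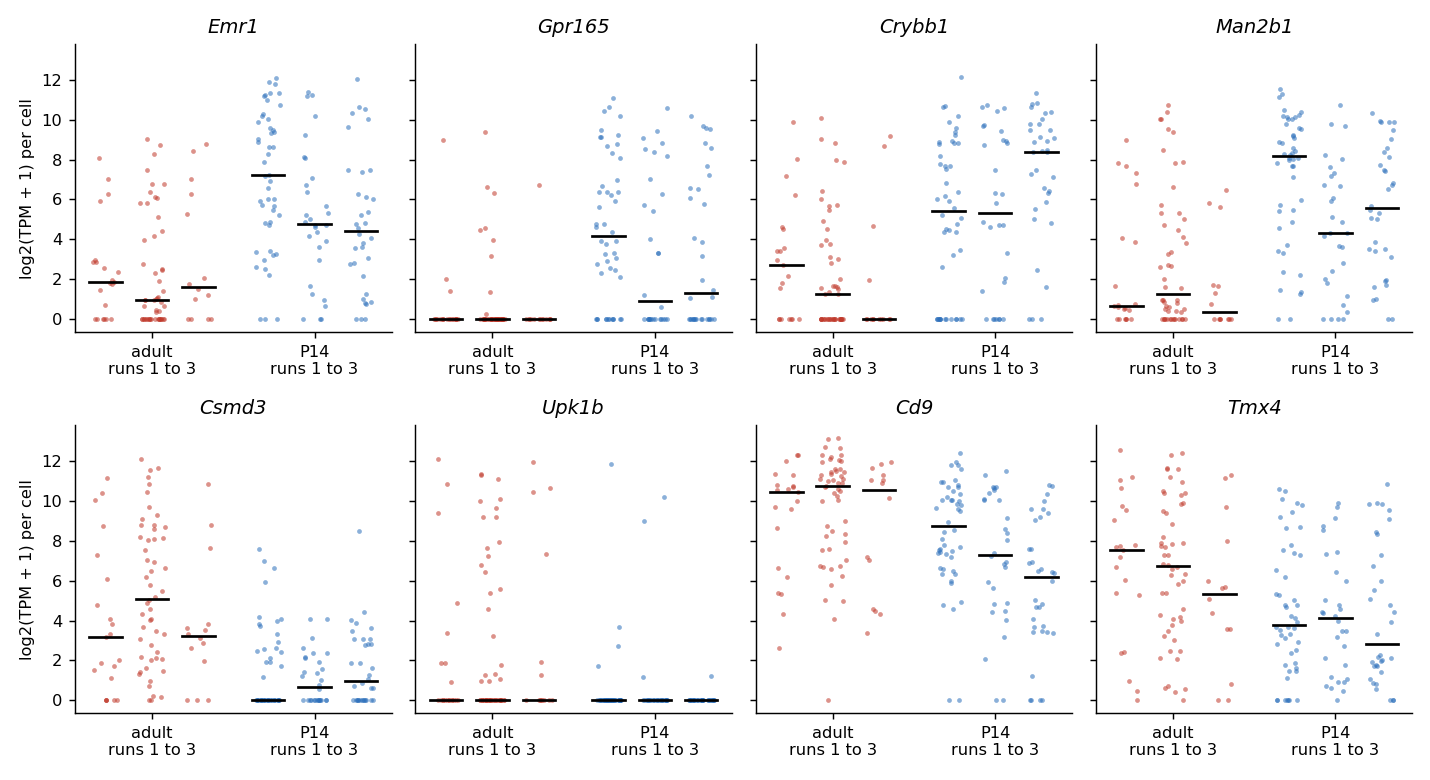
Levels of 8 genes in single cells, as log2(TPM + 1), by title run, with the 3 adult runs left of the 3 P14 runs in each panel. Gpr165 is near 0 in most adult cells (seen in 12 of 87) and seen in 70 P14 cells, while Cd9 is found in most cells of both ages at higher adult levels.

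Among 18 measured homeostatic microglia genes the median log2 ratio was -0.02, and 15 lay within 2-fold. Sall3 was the only member higher by 2-fold, at 132.3 TPM in adult cells and 43.8 TPM in P14 cells. Sall1 and Sparc were lower, and all 3 were apart in every run, where 3.28% of measured genes were higher and 8.05% lower. Sall1 averaged 183.1 TPM in adult cells and 433 TPM in P14 cells. Sparc, a secreted matrix-associated glycoprotein, averaged 3743 TPM in adult cells and 7968 TPM in P14 cells, with run means of 3936, 3679 and 3692 TPM in the adult runs, against 8151, 8791 and 6984 TPM in the P14 runs. Csf1r averaged 1127 TPM in adult cells and 2226 TPM in P14 cells, a log2 ratio of -0.98 just short of 2-fold, with no overlap of run means. Cx3cr1, the fractalkine receptor, stood at -0.02.

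Of 20 measured macrophage transcription factors (median 0.04), 3 were higher (Runx1, Elf1 and Foxp1) and 3 lower (Sall1, Cebpb and Bhlhe41). Over all measured genes 22.2% were higher and 27.3% lower. All but Foxp1 and Bhlhe41 were apart in every run, where 3.28% of all measured genes were higher and 8.05% lower. Runx1, a factor of blood cell development, averaged 200.4 TPM in adult cells and 40.1 TPM in P14 cells, with run means of 234, 184.3 and 209.02 TPM in the adult runs, against 51.5, 13.9 and 47.1 TPM in the P14 runs. Elf1, an ETS family factor, averaged 78.3 TPM in adult cells and 29.6 TPM in P14 cells, though it was seen in 42 adult cells (48.3%) and 61 P14 cells (54.5%). Cebpb, a C/EBP factor of macrophage activation, averaged 2.30 TPM in adult cells and 12.52 TPM in P14 cells. Bhlhe41 averaged 351 TPM in adult cells and 3055 TPM in P14 cells, but only 87.1 TPM in paired-end P14 cells, against which its adult log2 ratio was 1.998. Its direction thus depended on which P14 cells were used.

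Receptors for cytokines and growth factors (18 measured, median -0.03) held 1 higher member, Il13ra1, and 4 lower members, all 4 apart in every run. Over all measured genes 22.2% were higher and 27.3% lower, and 8.05% were lower and apart in every run. Csf2rb, the shared beta chain of the GM-CSF, IL-3 and IL-5 receptors, averaged 13.2 TPM in adult cells and 54.5 TPM in P14 cells. Ifnar2, a chain of the type I interferon receptor, averaged 27.4 TPM in adult cells and 62.03 TPM in P14 cells. Il4ra, the IL-4 receptor alpha chain, averaged 5.42 TPM in adult cells and 36.1 TPM in P14 cells, and Igf1r, the IGF-1 receptor, averaged 2.47 TPM in adult cells and 17.9 TPM in P14 cells. Il13ra1 averaged 157.6 TPM in adult cells and 51.2 TPM in P14 cells, with run means of 16.99, 212.8 and 163.8 TPM in the adult runs, against 70.98, 28.7 and 43.03 TPM in the P14 runs that overlapped. TGF-beta signalling genes (12 measured, median 0.45) held Ski as the only higher member, with overlapping runs, and Smad2 as the only lower one, apart in every run. Ski, a repressor of the pathway, averaged 64.1 TPM in adult cells and 29.9 TPM in P14 cells, and Smad2, which carries the signal, averaged 12.2 TPM in adult cells and 42.6 TPM in P14 cells. Ltbp1, Skil and Tgif1 lay within 2-fold, at log2 ratios of 0.68, 0.68 and 0.47.

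Of 21 measured purinergic and other surface receptors (median 0.02), 4 were lower, all apart in every run: Ccr1, Gpr165, P2ry6 and P2rx4. Over all measured genes 22.2% were higher and 27.3% lower, and 3.28% and 8.05% were so and apart in every run. P2ry6, the UDP receptor that promotes phagocytosis in microglia, averaged 104.97 TPM in adult cells and 276 TPM in P14 cells and was seen in 44 adult cells (50.6%) and 82 P14 cells (73.2%). P2rx4, an ATP-gated channel, averaged 13.8 TPM in adult cells and 38.1 TPM in P14 cells. Of the 4 higher members C5ar1, the receptor of the complement fragment C5a, was the only 1 apart in every run. It averaged 242 TPM in adult cells and 43.1 TPM in P14 cells, with run means of 323, 242 and 119.3 TPM in the adult runs, against 30.5, 67.1 and 39.7 TPM in the P14 runs. C3ar1, the C3a receptor, averaged 312 TPM in adult cells and 126.3 TPM in P14 cells, with an adult run at 94.1 TPM below all P14 runs, and the runs of Lpar5 and S1pr1 overlapped too. C5ar1 and C3ar1 were also the only 2-fold members of 9 measured complement genes (median -0.04), and C1qa, a chain of C1q, averaged 540.0 TPM in adult cells and 703 TPM in P14 cells.

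Phagocytic and pattern recognition receptors (22 measured, median 0.31) included 4 higher members, Cd33 and Tlr3 apart in every run and Itgax and Fcgr2b not. Mrc1 and Tlr13 were the 2 lower members, with overlapping runs. Over all measured genes 22.2% were higher and 27.3% lower, and 3.28% were higher and apart in every run. Cd33, a sialic acid-binding lectin, averaged 438 TPM in adult cells and 207.7 TPM in P14 cells, yet its difference of mean log2(TPM + 1) was -0.11 and it was seen in 57 adult cells (65.5%) and 84 P14 cells. Tlr3, the sensor of double-stranded RNA, averaged 80.4 TPM in adult cells and 13.3 TPM in P14 cells, and was also seen in a smaller share of adult cells, 39 adult cells (44.8%) and 71 P14 cells (63.4%). Tlr13, a sensor of bacterial ribosomal RNA, averaged 59.1 TPM in adult cells and 138.2 TPM in P14 cells. Fcgr2b, the inhibitory Fc receptor, averaged 346 TPM in adult cells and 170.1 TPM in P14 cells, and Itgax was found in 1 adult cell and 0 P14 cells.

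Disease-associated microglia genes (19 measured, median 0.31) stood on both sides. Of the 6 higher members Lyz2, Ank, Ccl6 and Cd9 were apart in every run, and Cst7 and Itgax were not. Over all measured genes 22.2% were higher, and 3.28% were higher and apart in every run. Lyz2, lysozyme, averaged 305 TPM in adult cells and 62.8 TPM in P14 cells and was seen in 51 adult cells (58.6%) and 26 P14 cells (23.2%). Ccl6, a chemokine, averaged 537 TPM in adult cells and 162.5 TPM in P14 cells, with run means of 396, 486 and 936 TPM in the adult runs, against 171.5, 154.7 and 156.6 TPM in the P14 runs. Ank, a membrane pyrophosphate transporter, averaged 53.3 TPM in adult cells and 9.97 TPM in P14 cells, in only 10 adult cells (11.5%) and 8 P14 cells (7.14%). Both lower members, Apoe and Igf1, were apart in every run, where 8.05% of all measured genes were lower. Apoe, the lipid carrier apolipoprotein E, averaged 86.6 TPM in adult cells and 554 TPM in P14 cells, with 5 adult cells (5.75%) and 44 P14 cells (39.3%) at 100 TPM or more. Igf1, a growth factor, averaged 0.453 TPM in adult cells and 7.78 TPM in P14 cells.

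Secreted growth and survival factors (11 measured, median 0.27) held 3 lower members, Gas6, Osm and Igf1, all apart in every run, and 3 higher members, Hbegf, Pdgfa and Vegfb, with overlapping runs. Among all measured genes 22.2% were higher and 27.3% lower, and 8.05% were lower and apart in every run. Gas6, which bridges dying cells to the receptors Axl and Mertk, averaged 3.16 TPM in adult cells and 50.4 TPM in P14 cells and was seen in 9 adult cells (10.3%) and 46 P14 cells (41.1%). Osm, oncostatin M, averaged 1.01 TPM in adult cells and 20.9 TPM in P14 cells. Ccl9, Il18 and Pros1 lay within 2-fold, at log2 ratios of 0.27, -0.21 and -0.13.

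Inflammatory cytokine and NF-kB genes leaned higher in adult cells. Of 24 measured members 13 were at least 2-fold higher, where 22.2% of all measured genes were, and 3 were lower. The list median was 1.02 for the ratio of means and 0.22 for the difference of mean log2(TPM + 1). Ccl4, Nfkbiz, Cxcl16 and Bcl2a1b were higher and apart in every run, where 3.28% of all measured genes were. Nfkb1, a subunit of NF-kB itself, was lower and apart in every run at -1.36, where 8.05% of all measured genes were. Ccl4, the chemokine MIP-1 beta, averaged 2602 TPM in adult cells and 798 TPM in P14 cells. Adult cells ranged from 0 to 20650.3 TPM with a median of 255 TPM, and P14 cells ranged from 0 to 16641 TPM with a median of 3.43 TPM, so the ages overlapped over most of their range. Nfkbiz, an atypical member of the IkB family, averaged 236 TPM in adult cells and 74.3 TPM in P14 cells and was seen in 70 adult cells (80.5%) and 67 P14 cells (59.8%).

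The direction of this list depended on the P14 cells used. Paired-end P14 cells averaged 3073 TPM of Ccl4, and against them the Ccl4 ratio was -0.24 and the list median -0.42. Cells with 5 or more listed genes at 100 TPM or more made up 33.3% of adult cells (33.3, 32.7 and 35.7% by run) and 24.1% of P14 cells (20.8, 23.3 and 29.4% by run). Il6, with a log2 ratio of 4.55, was seen in 6 adult cells (6.90%) and 2 P14 cells (1.79%), and Cxcl10, an interferon-induced chemokine, in 8 adult cells (9.20%) and 6 P14 cells (5.36%), at 50.8 TPM in adult cells and 7.88 TPM in P14 cells. Tnf averaged 16.9 TPM in adult cells and 67.9 TPM in P14 cells, in 10 adult cells (11.5%) and 15 P14 cells (13.4%).

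The letters GGGA, any 2 bases and TTCC, a form of the kappa B site bound by NF-kB, were looked for on both strands from 250 bases before to 50 bases after the RefSeq start of each gene (GRCm38.p6). They were found for 3 of the 16 measured list members that matched the promoter table, and for 1.63% of all 26994 genes there. The 3 stretches are shown because they carry this motif among the listed genes; each is read along its gene's own strand, with the motif, or its reverse complement (GGAA, any 2 bases, TCCC), in capitals. A match is a description of the letters and not a bound site.
Il6, chr5:30013050-30013099 (+): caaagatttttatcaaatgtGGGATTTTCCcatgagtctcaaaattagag
Cxcl10, chr5:92349019-92349068 (-): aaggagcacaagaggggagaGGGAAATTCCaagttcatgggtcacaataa
Nfkbia, chr12:55492647-55492696 (-): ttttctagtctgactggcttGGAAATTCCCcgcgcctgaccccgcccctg
Il6 and Cxcl10 were higher in adult cells by the ratio of means, and Nfkbia, which encodes the inhibitor IkB alpha, stood at -0.22.

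Immediate early genes (22 measured, median -0.04) held 4 higher members, of which Dusp1 and Fosb were apart in every run and Klf2 and Fosl2 were not. The 2 lower members were Junb, apart in every run, and Dusp2, which was not. Over all measured genes 22.2% were higher and 27.3% lower, and 3.28% and 8.05% were so and apart in every run. Dusp1, a phosphatase that shuts off MAP kinases, averaged 1793 TPM in adult cells and 652 TPM in P14 cells, with run means of 1562, 2089 and 1041 TPM in the adult runs, against 539, 664 and 802 TPM in the P14 runs, and was seen in all 87 adult cells. The AP-1 subunit Fosb averaged 122.1 TPM in adult cells and 54.5 TPM in P14 cells. Junb, another AP-1 subunit, averaged 27.98 TPM in adult cells and 151.4 TPM in P14 cells, with 4 adult cells (4.60%) and 28 P14 cells at 100 TPM or more. Klf2, a Kruppel-like factor, averaged 130.4 TPM in adult cells and 60.1 TPM in P14 cells.

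Cell cycle genes were mostly lower in adult cells. Of 29 measured members 18 were at least 2-fold lower, where 27.3% of all measured genes were; Cdk1, Top2a, Kif11 and Birc5 were apart in every run, where 8.05% of all measured genes were. The list median was -1.88 for the ratio of means and -0.33 for the difference of mean log2(TPM + 1). Mcm3, Mcm6 and Plk1 were higher with overlapping runs. Cdk1, the kinase that drives entry into mitosis, averaged 0.357 TPM in adult cells and 68.7 TPM in P14 cells. It reached 100 TPM in 0 of 87 adult cells, a count that allows up to 3.45%, and in 9 P14 cells (8.04%). Cells with 5 or more cell cycle genes at 100 TPM or more numbered 0 in the adult and 8 at P14, with 3, 2 and 3 in the P14 runs. H2afz, a histone variant gene, averaged 291 TPM in adult cells and 1077 TPM in P14 cells, with 68.2% of the P14 sum in 1 cell, and its ratio was 0.0012 in cells with 3000 to 4500 genes. Mcm3, a subunit of the replication helicase, averaged 101.7 TPM in adult cells and 41.95 TPM in P14 cells, but was seen in 12 adult cells (13.8%) and 23 P14 cells (20.5%). Tk1, thymidine kinase, averaged 26.8 TPM in adult cells and 65.2 TPM in P14 cells, with 87.7% of the adult sum in 1 cell.

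Lysosomal genes (30 measured, median -0.24) held 6 lower members, a smaller share than the 27.3% of all measured genes that were lower, and 0 higher ones. Ctsf, Man2b1, Gaa and Grn were apart in every run, and those with overlapping runs included Atp6v1b2. Grn, progranulin, averaged 1080.0 TPM in adult cells and 2234 TPM in P14 cells, and Gaa encodes acid alpha-glucosidase. Atp6v1b2, a subunit of the vacuolar proton pump, averaged 25.2 TPM in adult cells and 111.4 TPM in P14 cells. Autophagy genes (14 measured, median -0.04) held 1 lower member, Ulk1, and 0 higher ones; Gabarap, Atg12, Becn1 and Gabarapl2 stood at -0.65, 0.65, 0.59 and -0.22.

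Cholesterol and lipid genes were also mostly lower in adult cells, with 10 of 18 measured members lower by 2-fold or more, where 27.3% of all measured genes were, and 2 higher (Fabp5 and Fasn, runs overlapping). The median was -1.09 for the ratio of means and -0.36 for the difference of mean log2(TPM + 1). Apoe, Scd2 and Insig1 were lower and apart in every run, where 8.05% of all measured genes were. Insig1, which holds back sterol synthesis when sterols abound, averaged 16.7 TPM in adult cells and 51.7 TPM in P14 cells, in 24 adult cells (27.6%) and 60 P14 cells (53.6%). Scd2, a fatty acid desaturase, averaged 11.6 TPM in adult cells and 55.1 TPM in P14 cells, in 9 adult cells (10.3%) and 41 P14 cells (36.6%). Plin2, a lipid droplet coat protein, averaged 36.3 TPM in adult cells and 100.9 TPM in P14 cells with overlapping runs. Hmgcs1, of sterol synthesis, rested on few cells: it had a log2 ratio of -3.12 and was seen in 4 adult cells (4.60%) and 16 P14 cells (14.3%).

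The motif TCACNCCAC, a form of the sterol regulatory element bound by SREBP factors, was looked for in the same windows on both strands. It was found for 1 of the 10 measured lipid members that matched the promoter table, and for 1.44% of all 26994 genes. That stretch is shown with the motif in capitals.
Hmgcs1, chr13:119690194-119690242 (+): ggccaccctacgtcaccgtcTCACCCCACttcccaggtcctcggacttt

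Ribosomal protein genes had a median of -0.55 for the ratio of means and -1.47 for the difference of mean log2(TPM + 1), beside -0.07 and -0.12 over all measured genes. Of 80 measured members 17 were at least 2-fold lower, a smaller share than the 27.3% over all measured genes, and 0 were 2-fold higher. Of the 17, 11 were apart in every run, a larger share of the list than the 8.05% over all measured genes. Rps10 averaged 39.95 TPM in adult cells and 194.8 TPM in P14 cells and was seen in 27 adult cells (31.03%) and 64 P14 cells (57.1%). Rpsa averaged 66.2 TPM in adult cells and 232 TPM in P14 cells, Rpl17 averaged 87.2 TPM in adult cells and 303 TPM in P14 cells, and Rpl13 averaged 80.7 TPM in adult cells and 265 TPM in P14 cells. These genes have many processed copies, so that single values are uncertain. Their sum took a median of 2.16% of TPM in adult cells and 3.16% in P14 cells, with run medians of 2.48, 2.05 and 2.18% in the adult and 3.32, 2.83 and 3.48% at P14.

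Translation factors (27 measured, median -0.10) held 4 lower members, of which Eif4g1 and Eif3e were apart in every run and Eef1d and Pabpc1 were not, and 1 higher member, Eif3a, apart in every run. Eif4g1, the scaffold of cap-dependent initiation, averaged 16.9 TPM in adult cells and 86.1 TPM in P14 cells, and Eif3e averaged 38.4 TPM in adult cells and 97.1 TPM in P14 cells. Eef1d, an elongation factor, averaged 147.3 TPM in adult cells and 309 TPM in P14 cells. Eif3a averaged 157.3 TPM in adult cells and 71.3 TPM in P14 cells, but its difference of mean log2(TPM + 1) was -0.25. Actin and motility genes (21 measured, median -0.32) held Cfl1 and Pfn1 as lower members, both apart in every run, and 0 higher ones. For both lists the background was 22.2% of all measured genes higher and 27.3% lower, with 3.28% and 8.05% apart in every run. Rac2, a small GTPase of blood cells, stood at -0.96 and Arpc2, of the Arp2/3 complex, at -0.93.

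Energy genes had no common direction. The background over all measured genes was 22.2% higher and 27.3% lower, with 3.28% and 8.05% apart in every run. Of 13 measured glycolysis genes (median 0.03), Hk2, Pgk1 and Pgam1 were higher and Ldha, Pkm, Pfkl and Slc2a1 lower; Hk2, Pgk1, Ldha and Pkm were apart in every run. Hk2, hexokinase 2, averaged 1159 TPM in adult cells and 542 TPM in P14 cells, and Pgk1, phosphoglycerate kinase, averaged 107.9 TPM in adult cells and 20.4 TPM in P14 cells. Pkm, pyruvate kinase, averaged 79.3 TPM in adult cells and 226 TPM in P14 cells, and Ldha, lactate dehydrogenase, averaged 69.1 TPM in adult cells and 193.7 TPM in P14 cells. Of 38 measured oxidative phosphorylation genes (median 0.10), 5 were higher, Ndufs6, Ndufc1 and Cox6b1 apart in every run, and 3 lower, Cox5b and Cox5a apart in every run. Cox5b, of complex IV, averaged 11.4 TPM in adult cells and 115.5 TPM in P14 cells, and Cox6b1, of the same complex, averaged 159.98 TPM in adult cells and 60.9 TPM in P14 cells. Ndufs6 and Ndufc1, of complex I, stood at 1.66 and 1.63. Of 15 mitochondrially encoded genes (median -0.39), mt-Nd3 was higher at 1.21 and mt-Co3 lower at -1.14, both with overlapping runs, and mt-Rnr2 and mt-Co1 stood at -0.83 and -0.71.

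Of 6 measured MHC class II genes (median 0.78), H2-Ob, H2-DMa and Cd74 were higher with overlapping runs, and H2-Oa was lower and apart in every run. H2-DMa, which helps to load peptides, averaged 383 TPM in adult cells and 169.5 TPM in P14 cells, H2-Ob averaged 86.97 TPM in adult cells and 15.8 TPM in P14 cells, and Ctss, cathepsin S, averaged 9372 TPM in adult cells and 7123 TPM in P14 cells. Of 14 measured MHC class I genes (median -0.14), H2-T23 was higher with overlapping runs at 1.71, and Tap1 and Erap1 were lower, Erap1 apart in every run. Erap1, which trims peptides, averaged 16.4 TPM in adult cells and 61.4 TPM in P14 cells. H2-Q7 and H2-D1 stood at 0.96 and 0.46, and class I genes are uncertain singly because they share sequence. Of 21 measured interferon response genes (median 0.03), 5 were higher, none apart in every run, and 8 were lower, of which Usp18 was apart in every run. Beside the MHC and interferon counts, 22.2% of all measured genes were higher and 27.3% lower, with 3.28% and 8.05% apart in every run. Irf7, an interferon regulatory factor, averaged 0.0498 TPM in adult cells and 51.3 TPM in P14 cells, and 1 P14 cell held 84.2% of the P14 sum. Bst2, Irf9 and Lgals3bp stood at -2.61, 1.16 and 1.13.

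Heat shock and unfolded protein genes (21 measured, median 0.41) held 4 higher members, Dnaja1 apart in every run at 1.11, and 4 lower members, Pdia4 apart in every run. Pdia4, a disulfide isomerase, averaged 50.6 TPM in adult cells and 144.9 TPM in P14 cells, and Hspa5, the chaperone BiP, averaged 1556 TPM in adult cells and 689 TPM in P14 cells with overlapping runs. Atf4 averaged 290.0 TPM in adult cells and 648 TPM in P14 cells, with 58.5% of the P14 sum in 1 cell, and Xbp1 stood at -1.13. Proteasome genes (21 measured, median -0.01) held 3 higher members, of which Psma6 was apart in every run, and 3 lower ones that were not. For both lists the shares over all measured genes were 22.2% higher and 27.3% lower, with 3.28% and 8.05% apart in every run. Psma6 averaged 677 TPM in adult cells and 97.99 TPM in P14 cells, and 1 adult cell held 75.7% of the adult sum. Psmd1, Psmd4 and Psme2 stood at -1.37, 1.18 and -1.08.

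Splicing factors (24 measured, median 0.12) held Hnrnpc and Tra2a as higher and Rbm25 and Srsf2 as lower members, none apart in every run. Hnrnpc, Srsf7, Rbm25 and Srsf2 stood at 1.39, 0.97, -1.14 and -1.07. Iron and redox genes (22 measured, median -0.03) held 3 higher members with overlapping runs and 4 lower ones, of which Gclc, for glutathione synthesis, was apart in every run. Against both lists stands the background of 22.2% of all measured genes higher and 27.3% lower, with 3.28% and 8.05% apart in every run. Gclc averaged 13.96 TPM in adult cells and 54.7 TPM in P14 cells. Hmox1, heme oxygenase, averaged 6.76 TPM in adult cells and 85.99 TPM in P14 cells, with 59.5% of the P14 sum in 1 cell. Cat, catalase, stood at -1.38.

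**Figure D4:**
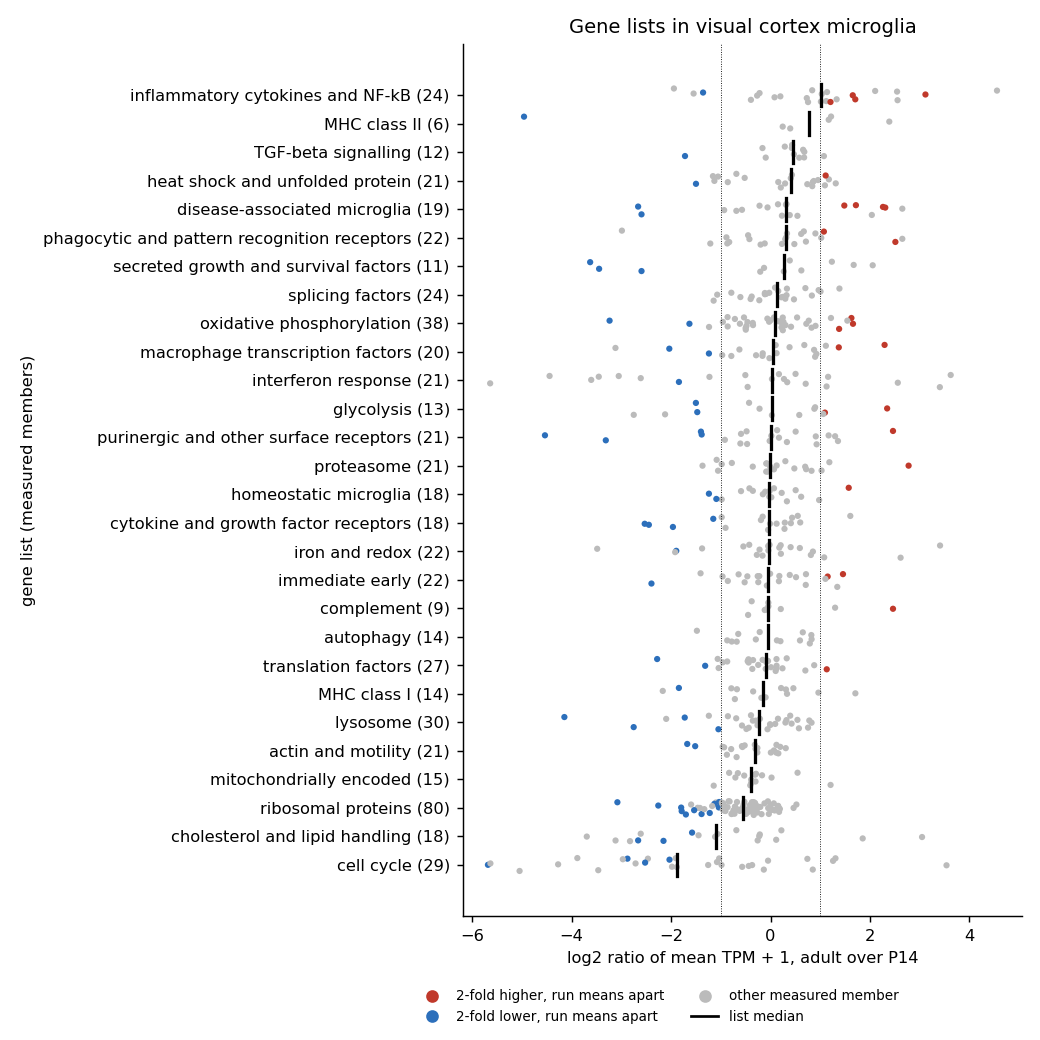
Log2 ratio of mean TPM + 1, adult over P14, of the measured members of each gene list, ordered by list median; coloured points passed 2-fold with run means apart in every run. Cell cycle (-1.88) and cholesterol and lipid genes (-1.09) have the lowest medians of the gene lists other than cell type markers and inflammatory cytokine and NF-kB genes (1.02) the highest; on the difference of mean log2(TPM + 1) these medians were -0.33, -0.36 and 0.22, and most lists have members on both sides of 0.

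Markers of other cell types were partly present. For border-associated macrophages 5 of 12 markers were measured, with summed levels of 0, 82.8 and 4385 TPM in adult cells and 0, 125.2 and 2914 TPM in P14 cells (lowest, median and highest). Pf4, listed at 0 in all P14 cells, was higher and Cbr2, Folr2 and Mrc1 were lower, with overlapping runs, and Cbr2 and Cd209f were at 0 in all adult cells. Mrc1, the mannose receptor and a marker of those macrophages, averaged 11.4 TPM in adult cells and 97.4 TPM in P14 cells and reached 100 TPM in 1 adult cell (1.15%) and 24 P14 cells (21.4%). Stab1, on the same list, averaged 453 TPM in adult cells and 276 TPM in P14 cells. Such macrophages also express Apoe, and the part of these cells in its difference was not tested. Monocyte (4 measured), neutrophil (3), T and NK cell (1), B cell (3) and dendritic cell (1) markers held no member apart in every run. Ccr2, the neutrophil genes Ngp and S100a8 and the B cell gene Ighd were at least 2-fold higher, and Plac8 and Cd79b lower. Ngp averaged 6.07 TPM in adult cells and 0.355 TPM in P14 cells, with 82.2% of the adult sum in 1 cell. S100a8 averaged 5.55 TPM in adult cells and 0 TPM in P14 cells, with 81.2% of the adult sum in 1 cell. Ighd averaged 56.1 TPM in adult cells and 5.63 TPM in P14 cells, with 90.8% of the adult sum in 1 cell. The members with the highest mean level had log2 ratios of 2.40 for Ccr2, 0.55 for Csf3r, -0.64 for Cd3d, 0.42 for Ighm and 0.62 for Siglech, which microglia express. At 1 TPM or more, most cells of both ages showed Csf3r (70 adult and 97 P14 cells) and Ighm (70 and 93), so neither singled out a few cells. Ccr2 was seen in 39 adult and 32 P14 cells and Cd3d in 39 and 47.

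Of astrocyte markers 4 were measured, with Clu, listed at 0 in all P14 cells, higher and S100b lower and apart in every run, of oligodendrocyte lineage markers 3, with no 2-fold member, and of endothelial markers 2, with Bsg and Pecam1 lower and Pecam1 apart in every run. Slc1a3, Trf and Bsg, the members with the highest mean level, had log2 ratios of 0.21, -0.17 and -2.30. Of the neuronal list only Snap25 was measured, at 0.482 TPM in adult cells and 8.93 TPM in P14 cells, and the median sum of that list was 0 TPM at both ages. No mural or erythroid marker was measured; Tagln averaged 0.168 TPM in adult cells and 3.32 TPM in P14 cells, and Hba-a1 averaged 0.475 TPM in adult cells and 0 TPM in P14 cells.

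Among the kept cells of both ages, the first principal component of log2(TPM + 1) took 3.57% of the variance and followed genes per cell, with a Pearson correlation of -0.93 over cells. The second took 1.71%, with a correlation of 0.29, and 91.95% of adult cells lay above the P14 median and 93.8% of P14 cells below the adult median. The genes listed at its adult end mostly had predicted-gene or clone names, and Csmd3 and Ltbp1 were the only others. Genes at its P14 end included Crybb1, Ckb, Rps10, Pfn1 and Emr1. The correlation of this component with genes per cell was 0.74 within adult cells and 0.27 within P14 cells. The third component took 1.04% and set title runs of 1 age apart. On it, all cells of adult run 3 were negative and most of adult runs 1 and 2 positive. Nearly all cells of P14 run 1 were negative and most of P14 runs 2 and 3 positive. The part of such run differences in the values above was not tested. Within an age, Spearman's correlation of Ccl4 with Ccl3 was 0.44 over adult cells and 0.27 over P14 cells. The correlation of Emr1 with Gpr165 was 0.00 over adult cells and 0.09 over P14 cells, and that of Csmd3 with Upk1b 0.08 over adult cells and 0.07 over P14 cells. Which cells of 1 age shared an animal or a chip is not known, and these values are descriptions.

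Adult and single-read P14 cells of hippocampus (49 adult cells, with 2.14 P14 cells for each) and thalamus (91 adult cells, with 2.05 P14 cells for each) gave the same contrast in other cells. The filters for naming were passed by 0.869% of measured genes as higher and 1.64% as lower in adult visual cortex. Of the higher genes, 35 (34%) were at least 2-fold higher in hippocampus, where 20.7% of measured genes were, and 23 (22.3%) in thalamus, where 19.6% were. Of the lower genes, 74 (37.9%) were at least 2-fold lower in hippocampus, where 36.1% of measured genes were, and 41 (21%) in thalamus, where 22.8% were. In both other regions 10 of the higher genes (9.71%) were higher too, against 4.18% of the 10261 genes measured in both, and 17 of the lower genes (8.72%) were lower too, against 9.68%. The shares for lower genes thus lay close to the background in both regions, and that for higher genes in thalamus did too.

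The 10 genes that passed the filters for naming in visual cortex and were at least 2-fold higher in all 3 regions were Adamts1, Aste1, C5ar1, Csmd3, Lyz2, Runx1, Slamf9, Srgn, Tmx4 and Upk1b. Csmd3 stood at 4.94 in visual cortex, 3.09 in hippocampus and 2.77 in thalamus. Srgn stood at 3.76, 4.30 and 3.11 in the same order, Upk1b at 2.64, 5.36 and 1.94, and Tmx4 at 1.87, 2.03 and 1.85. The 17 that passed the same filters and were lower in all 3 regions included Emr1 at -3.57, -1.64 and -1.28, Gpr165 at -3.31, -4.21 and -2.08, and Crybb1 at -2.67, -3.87 and -1.52. Genes that had not passed the filters were also on the same side in all 3 regions, such as Ank at 2.31, 3.40 and 2.22 and Mrc1 at -2.99, -4.70 and -2.58. Other genes had no such match: Phactr1 stood at 4.09 in visual cortex, -0.17 in hippocampus and -0.37 in thalamus, and Cdk1 at -5.68, -3.14 and 0.73. The differences between regions were not tested.

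**Figure D5:**
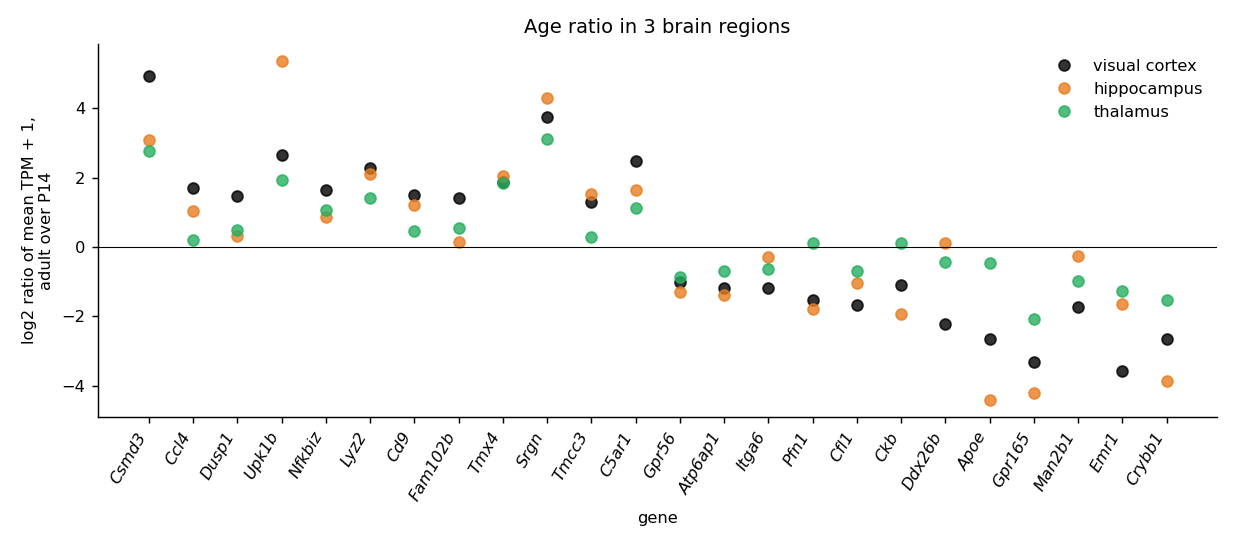
Log2 ratio of mean TPM + 1, adult over P14, of 24 genes in visual cortex, hippocampus and thalamus. Among genes that passed the filters for naming, these had the largest differences of mean log2(TPM + 1) in visual cortex in either direction. Csmd3, Upk1b, Tmx4 and Srgn are above 1 and Emr1, Gpr165 and Crybb1 below -1 in all 3 regions, while Ddx26b is at -2.21 in visual cortex, 0.12 in hippocampus and -0.42 in thalamus.

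Paired-end visual cortex cells gave levels at younger ages, 16 cells at E18.5, 28 at P7 and 150 less 6 left out at P14, which are set beside single-read adult cells only as values since the layout differs. Csmd3 averaged 0 TPM at E18.5, 0 TPM at P7 and 2.02 TPM at P14, and Upk1b averaged 0 TPM at E18.5, 0 TPM at P7 and 20.7 TPM at P14, so neither was detected at E18.5 or P7. Gpr165 averaged 2.13 TPM at E18.5, 80.6 TPM at P7 and 198.9 TPM at P14, and Sall1 averaged 33.7 TPM at E18.5, 346 TPM at P7 and 443 TPM at P14. Emr1 averaged 437 TPM at E18.5, 1065 TPM at P7 and 556 TPM at P14, and Crybb1 averaged 266 TPM at E18.5, 476 TPM at P7 and 377 TPM at P14, above their adult means of 42.6 and 63.6 TPM at each of these ages. Apoe averaged 8116 TPM at E18.5, 749.6 TPM at P7 and 935 TPM at P14, and Mrc1 averaged 739 TPM at E18.5, 815 TPM at P7 and 220.7 TPM at P14. Lyz2 averaged 709 TPM at E18.5, 623 TPM at P7 and 135.4 TPM at P14, and Cd9 averaged 1519 TPM at E18.5, 1277 TPM at P7 and 629 TPM at P14, so that P14 held the lowest of these 3 levels for both genes.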

How the data were processed

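Single brain macrophages were captured on Fluidigm C1 chips, per the labels' protocols, and each sample is 1 cell. The authors deposited 1 table of 43280 genes in TPM. The submitters' processing notes name RSEM 1.2.19, Seurat and GRCm38. Aligner, annotation and strand setting were not given in the sources used here. Sums per cell lay between 996167 and 1000000, and 0 columns were left without a sample title. TPM keeps no depth, so reads per cell are unknown.

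Mean TPM, ratios with a pseudocount of 1 TPM, shares of cells with exact Clopper-Pearson 95% intervals (counting error over cells only) and title run means were computed with Python 3.11.15, numpy 2.4.6, pandas 2.3.3 and scipy 1.17.1, and figures were drawn with matplotlib 3.10.9. The ratio code was tested on simulated data. With 1 sample per age there was no test, and a called gene is one past 2-fold. Genes whose mean reached 5 TPM at either age counted as measured.

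Ranked genes had run means apart, a mean of 50 TPM or more and 1 TPM or more in 25% of cells of the higher age, and the same sign of the difference of mean log2(TPM + 1); the 12 largest ratios per direction were named, without ribosomal protein, mitochondrially encoded, predicted, Y-linked and pseudogenes and Xist. Up to 4 members with the largest ratios and a mean of 50 TPM or more were named per list, the highest member per marker list, and members behind a count of 5 or fewer. Other genes named, the ranking by mean log2(TPM + 1) included, were chosen after their values were seen, and a few genes are not reported here. The members and lists were chosen with earlier results of these data known. Coordinates are GRCm38 and promoters RefSeq GRCm38.p6. Alternatives were other pseudocounts, filters, scalings and cell sets, paired-end P14 cells, and leaving out each title run.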

Additional observations from a re-analysis of the deposited data

Results flagged for a closer look

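For 5 genes named above, another brain region differed from visual cortex in direction, with adult and P14 run means apart in both regions. The difference between regions was not tested. Iqcc had a log2 ratio of 3.70 in visual cortex, where 1 cell held 45.6% of the adult sum, and -3.10 in hippocampus. Tmem11 stood at 3.24 in visual cortex and -1.47 in thalamus. Ifnar2 stood at -1.15 in visual cortex and 1.36 in thalamus. Ldha stood at -1.47 in visual cortex and 1.33 in thalamus. Cox6b1 stood at 1.38 in visual cortex and -1.33 in thalamus, and at -0.38 in visual cortex against paired-end P14 cells.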

How the results depend on the processing

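The shares of measured genes at least 2-fold higher (22.2%) and lower (27.3%) in adult cells, and of those apart in every run (3.28% and 8.05%), depended on how highly expressing cells were weighed, on the P14 cells used and on the title runs kept. A pseudocount of 10 TPM gave 13.4% higher and 15.3% lower. A mean of 20 TPM or more left 7554 genes, with 22.1% higher, 22.03% lower and 7.84% lower apart in every run. The difference of mean log2(TPM + 1) gave 1.11% and 5.33%, and 0.692% and 3.70% apart in every run. Leaving out the highest cell of each gene gave 15.9% higher, 32.1% lower and 15.1% lower apart in every run, of 9037 genes. Paired-end P14 cells gave 9.34% higher and 15.4% lower apart in every run. Leaving out each title run gave 22.1 to 28.6% higher and 25.9 to 40.2% lower, and 4.25 to 7.69% higher and 11.1 to 19.6% lower apart in every run (most lower without adult run 2), where fewer runs have to be apart. Of the 389 and 954 genes apart in every run, 374 had a difference of mean log2(TPM + 1) above 0 and 948 below 0. Most of the 389 and most of the 954 nevertheless fell short of 2-fold on that scale, so their direction was kept more often than their size.

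Of genes and list medians at 2-fold or more, signs turned as follows, and the cause was not tested. The median of border-associated macrophage markers (-1.94) was 0.053 without a filter and 0.049 on mean log2(TPM + 1). On mean log2(TPM + 1), Ski was -0.22, Cd33 -0.11, Irf9 -0.10, Mcm3 -0.26, Eif3a -0.25 and Psmd4 -0.13. Smaller values turned on that scale too: named genes Skil (-0.13), H2-D1 (-0.42), Atg12 (-0.10), Becn1 (-0.09), Ccl9 (-0.17), Csf3r (-0.52) and Ighm (-0.24), and the list medians of macrophage transcription factors (-0.39), surface receptors (-0.53), phagocytic receptors (-0.15), immediate early (0.09), interferon response (-0.10), glycolysis (-0.10), oxidative phosphorylation (-0.32), splicing (-0.49), secreted factor (-0.17), B cell (-0.24) and astrocyte genes (-0.06). Against paired-end P14 cells the inflammatory list median was -0.42, Bhlhe41 1.998, Cxcl10 -0.67, Ccl4 -0.24, Irf7 0.018, Tk1 0.29, Cox6b1 -0.38 and Eef1d 0.28. With all cells Apex2 was -2.65, and in cells with 2000 genes or more Atf4 was 0.034. Leaving out each title run gave -3.27 to 0.82 for the border-associated macrophage median (highest without P14 run 1), -0.92 to 1.58 for Ski (lowest without adult run 2), and -1.86 to 0.16 for Atf4 (highest without P14 run 2). It gave -6.43 to 0.070 for Irf7 and -3.47 to 0.17 for Snap25 (both highest without P14 run 3), and -1.62 to 0.12 for Eef1d and -1.87 to 0.097 for Cat (both highest without P14 run 1). In the 57 adult and 71 P14 cells with 3000 to 4500 genes, a choice made after seeing the data, Atf4 was 0.27, H2afz 0.0012 and Tk1 0.66. No paired analysis was possible because each age is 1 sample and the cell numbers do not pair cells across ages.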
